A study of Sthenoteuthis oualaniensis with 24 samples.

Results

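The intestine and stomach of the mature medium form (MF) of Sthenoteuthis oualaniensis (SA), the purpleback flying squid of the South China Sea, were compared with each other. The comparison used 6 of the 24 libraries of the study, chosen by their labels, with 3 of the intestine (MDI) and 3 of the stomach (MDS). The other form sampled, the dwarf form, is smaller. Mature SA were wild animals graded from stage III upward on a scale of gonad maturity, and no treatment was given. Both tissues were taken from 3 mature MF animals, but no source used here says whether libraries with the same number come from 1 animal. The raw read totals listed for MDS_2 and MDS_3 are equal, and whether the libraries of a group are separate animals or repeat runs was not tested. Each n, SE and p below therefore counts libraries, not animals. The intestine (MUI) and stomach (MUS) of immature MF animals, 3 libraries each, were used only to set the tissue difference of mature SA beside that of immature SA. The same set of unigenes served all 12 libraries of the MF.

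In squids, the stomach is a muscular sac lined by a cuticle, where food is broken up and mixed with enzymes from the digestive gland. The intestine is a short ciliated tube that carries material from the stomach and caecum to the anus, has mucus-secreting cells and takes part in absorption. Expression was measured by RNA sequencing as FPKM, the number of fragments assigned to a transcript per kilobase of its length, scaled to the number of mapped fragments in the library. A unigene is a transcript sequence assembled from the reads without a genome, so 1 gene can appear as several unigenes. The deposited files list 66837 unigenes of the MF by ID and do not pair an ID with a gene name or a sequence. Tissue markers could therefore not be looked up, and lists of digestive enzymes, transporters, muscle genes and metabolic genes could not be applied. The likeness of libraries shows whether they group by label, but not which tissue a group is, so the tissue labels were not checked. The results below describe unigenes by level, direction and size of difference, with at most 2 IDs named for each tissue.

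Of the 66837 unigenes, 46055 (68.9%) averaged 0.5 FPKM or more across the 6 libraries and were compared. The correlation of log2(FPKM + 0.5) across these unigenes was 0.92 to 0.94 between libraries of the same tissue and 0.70 to 0.71 between libraries of different tissues. No library was closer to the other tissue than to its own. Fewer unigenes were listed at 0 in the intestine (5634 to 6282) than in the stomach (10304 to 10996). Each library of the intestine held 9128 to 9156 unigenes at 10 FPKM or more, against 7173 to 7184 in the stomach. At 1000 FPKM or more, each library of the intestine held 101 unigenes and those of the stomach 64 to 65. The groups did not overlap in any of these counts. An exact 2-sided permutation test gave p = 0.1 for each, which is the smallest value that 3 libraries against 3 can give. The counts at 10 FPKM and 1000 FPKM were made as deposited only, and they depend on the scaling. The count at 0 was highest in library 1 of each tissue (6282 in MDI_1 and 10996 in MDS_1). Those libraries had an estimated 0.848 and 0.872 times the depth of library 2 of their tissue. Depth was not compared between the tissues, and its part in the counts at 0 was not tested. The summed FPKM of a library was 723734 to 727591 in the intestine and 623381 to 624129 in the stomach.

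The spread between libraries of a tissue was small. The median coefficient of variation (SD over mean) among unigenes of 10 to 50 FPKM was 6.99% in MDI and 7.55% in MDS. Among unigenes of at least 1000 FPKM it was 1.15% in MDI and 1.13% in MDS. The coefficient of variation multiplied by the square root of FPKM, which stays level where the spread comes from counting fragments alone, was 27.8 to 34.7 in MDI and 30.2 to 37.5 in MDS between 2 and 1000 FPKM. It was 46.1 and 46.4 above 1000 FPKM. Unigene lengths were not used, so the counting error of a unigene is unknown. Unadjusted and adjusted p-values below measure the spread between these libraries, which may be smaller than that between animals. In bulk tissue, a difference in RNA per cell and a difference in the share of a cell type cannot be told apart.

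For each tissue, the unigene with the largest ratio and the most abundant tissue-biased unigene are named here, and these 4 differed 579-fold to 2124-fold in mean FPKM. comp24169_c0_seq1_1 had the largest ratio in favour of the intestine once unigenes averaging under 10 FPKM or overlapping between tissues were left out. Its levels in the intestine were 1674 FPKM, 1667 FPKM and 1624 FPKM in libraries 1 to 3. In the stomach they were 0.518 FPKM, 1.37 FPKM and 0.454 FPKM. Every library of the intestine was thus far above every library of the stomach, with a ratio of means of 2124. The log2 fold change from limma on log2(FPKM + 0.5) was 10.41 ± 0.25 (SE, n = 3 per tissue, Benjamini-Hochberg adjusted p = 6.5e-07). In immature SA the same unigene was at 57.8 ± 7.16 FPKM (SD, n = 3) in MUI and 0.821 ± 0.945 FPKM in MUS.

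comp32346_c1_seq1_2 had the highest mean of the intestine, 11182 FPKM, just above the 11176 FPKM of another unigene that was higher than it in MDI_2 and MDI_3. The order of these unigenes therefore rests on MDI_1. It stood at 10965 FPKM, 11270 FPKM and 11311 FPKM in the libraries of MDI. In MDS it stood at 8.26 FPKM, 19.1 FPKM and 19.4 FPKM. The tissues did not overlap, and the first library of the stomach had less than the other two. The ratio of means was 717, and the limma log2 fold change was 9.54 ± 0.31 (SE, n = 3 per tissue, adjusted p = 2.5e-06). In immature SA it was at 1565 ± 13.4 FPKM (SD, n = 3) in MUI and 7.57 ± 4.38 FPKM in MUS, a ratio of 207.

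In the stomach, comp33489_c0_seq1_2 was the most abundant of all unigenes. Its levels in MDS were 17458 FPKM, 17746 FPKM and 17720 FPKM, the highest values in any of the 6 libraries. In MDI it was at 26.4 FPKM, 31.7 FPKM and 33.4 FPKM. The ratio of means was 579 in favour of the stomach, with a limma log2 fold change, intestine over stomach, of -9.16 ± 0.08 (SE, n = 3 per tissue, adjusted p = 2.4e-08). In immature SA it was at 6027 ± 64.1 FPKM (SD, n = 3) in MUS and 65.2 ± 4.20 FPKM in MUI.

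CL7450Contig1 had the largest ratio in favour of the stomach. Its libraries of MDS were at 2998 FPKM, 3034 FPKM and 2964 FPKM, and those of MDI at 3.33 FPKM, 2.14 FPKM and 2.44 FPKM. The ratio of means was 1138, and the limma log2 fold change was -9.92 ± 0.13 (SE, n = 3 per tissue, adjusted p = 7.4e-08). Among the 4 unigenes named here, it was the one with no tissue difference in immature SA. There it was at 1.17 ± 0.746 FPKM (SD, n = 3) in MUI and 1.42 ± 0.829 FPKM in MUS, with overlapping libraries. Which unigene has the largest ratio depends on the pseudocount. With 1 FPKM added in place of 0.5, comp24169_c0_seq1_1 and CL7450Contig1 each ranked second, and with 0.1 added they ranked 1 and 3.

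**Figure D1:**
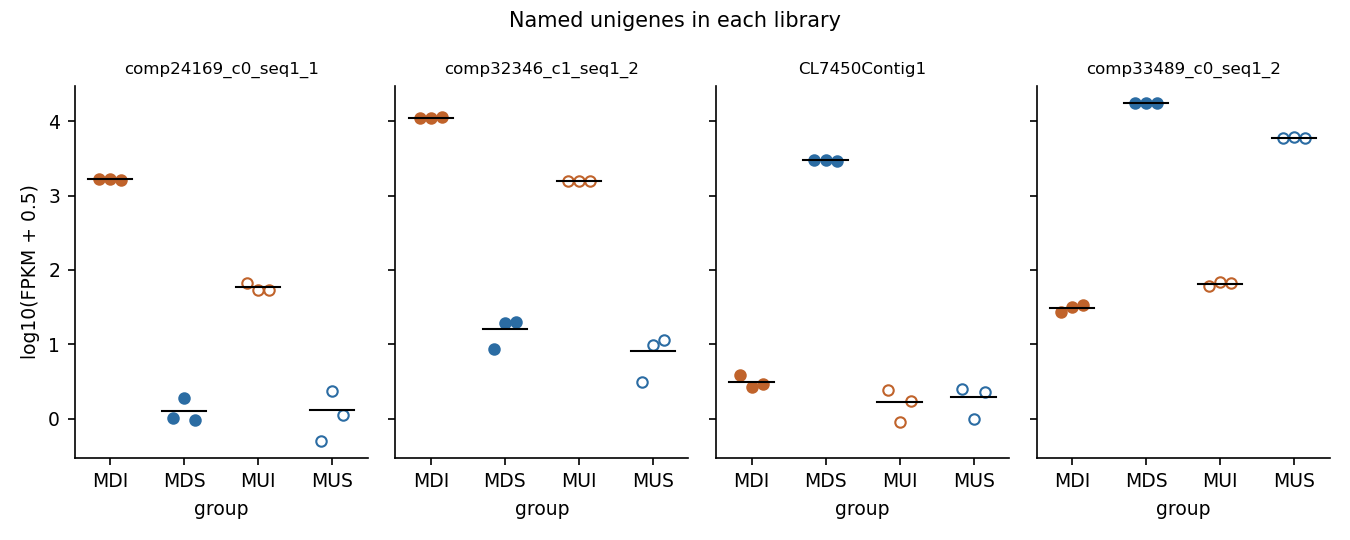
Level of the 4 named unigenes in each library, as log10(FPKM + 0.5) on the vertical axis, with 1 point per library, filled for mature and open for immature SA, and a line at the log10 of the group mean plus 0.5. CL7450Contig1 stands at 2998 FPKM in MDS and at 1.42 FPKM in MUS, while the other 3 differ between tissues in both stages.

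Over all unigenes, the ratio of group means with 0.5 FPKM added was 2-fold or more for 14957 of 46055 (32.5%), whatever the spread. Of these, 10346 (22.5% of those compared) were higher in the intestine and 4611 were higher in the stomach (10%). The libraries of the tissues did not overlap for 13323 of them, which is 28.9% of the unigenes compared. The intestine was the higher tissue for 9488 of these (20.6%) and the stomach for 3835 (8.33%). With limma, an adjusted p below 0.05 and at least a 2-fold difference, 12601 unigenes (27.4%) passed. Of these, 9041 (19.6%) were higher in the intestine and 3560 (7.73%) in the stomach. At the unadjusted threshold of 0.05 that the methods of the study name, 13633 unigenes (29.6%) passed, with 9690 (21%) higher in the intestine and 3943 (8.56%) in the stomach.

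The excess of unigenes that were higher in the intestine depended on the scaling at the 2-fold level. The median log2 ratio of all unigenes compared was 0.26 in favour of the intestine, and the summed FPKM of a library was 723734 to 727591 in the intestine and 623381 to 624129 in the stomach. As deposited, 71.7% of the calls at the adjusted threshold were higher in the intestine. This was 62.8% after scaling every library to the same summed FPKM, 58.9% with median-of-ratios factors and 50.7% after quantile normalization. At the unadjusted threshold, quantile normalization gave 6774 calls higher in the intestine and 6824 higher in the stomach, so there the more frequent direction turned.

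At 16-fold and 64-fold, the intestine had more unigenes under each of the 4 scalings run. At least 16-fold higher were 791 unigenes in the intestine and 142 in the stomach. With the other scalings, these were 599 to 711 in the intestine and 154 to 174 in the stomach. At least 64-fold higher were 153 unigenes in the intestine and 33 in the stomach, and with the other scalings 111 to 134 and 37 to 42. Differences of at least 256-fold were found for 24 unigenes of the intestine and 9 of the stomach. The pseudocount limits the ratio of unigenes with low levels, so none below a mean of 2 FPKM reached 16-fold. The 153 unigenes at least 64-fold higher in the intestine had a median of 70.2 FPKM there, and the 33 of the stomach had a median of 94.3 FPKM there.

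**Figure D2:**
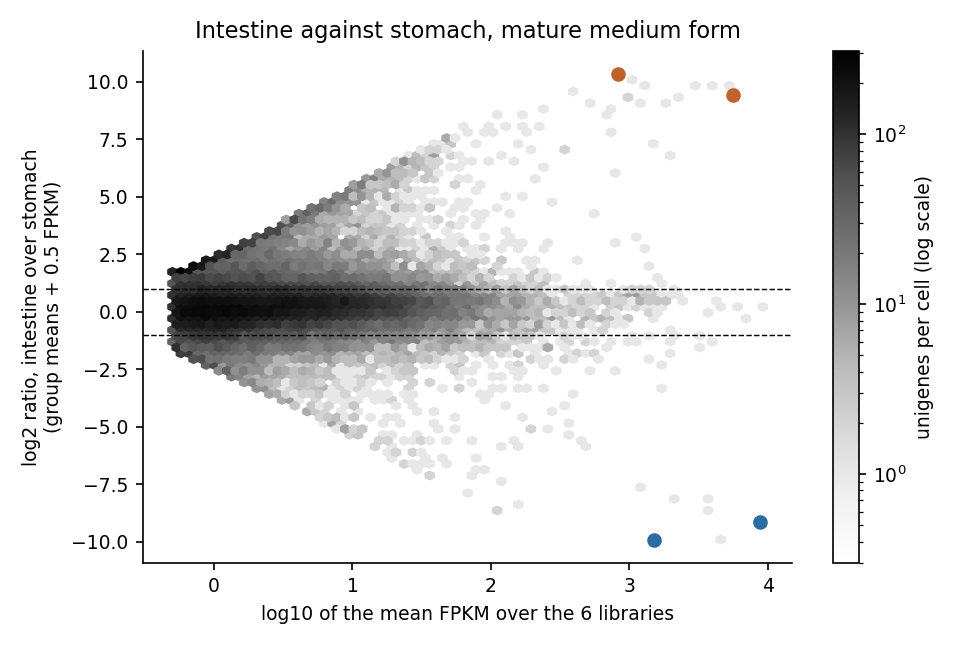
Log2 ratio of intestine over stomach (vertical axis, group means with 0.5 FPKM added) against the log10 of the mean FPKM over the 6 libraries (horizontal axis) for the 46055 unigenes compared, with darker cells holding more unigenes. The dashed lines mark 2-fold, and the coloured points are the named unigenes, orange for the intestine and blue for the stomach. The pseudocount gives the cloud its slanting upper and lower edges.

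The balance between tissues changed with the level of expression. Among unigenes averaging 2 to 10 FPKM, 22.9% were at least 2-fold higher in the intestine and 8.32% in the stomach. Among those of 50 to 200 FPKM, the shares were 17.0% and 13.9%. Among the 398 unigenes of at least 200 FPKM, 62 (15.6%) were higher in the intestine and 68 (17.1%) in the stomach, so the more frequent direction there was the stomach. With the other scalings these were 50 to 58 and 71 to 86. The direction of the class of 50 to 200 FPKM turned with the scaling. It held 213 unigenes higher in the intestine and 174 in the stomach as deposited, but 156 and 249 with median-of-ratios factors, 179 and 210 after quantile normalization and 172 and 224 with equal summed FPKM. The class of 0.5 to 2 FPKM turned with quantile normalization only (3381 and 4237), and the classes between 2 and 50 FPKM kept more unigenes of the intestine under each scaling run. The share that differed at least 2-fold in either direction was 30.3% to 34.2% in every class of level. Of the same 398 unigenes, 29 were at least 16-fold higher in the intestine and 14 in the stomach.

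**Figure D3:**
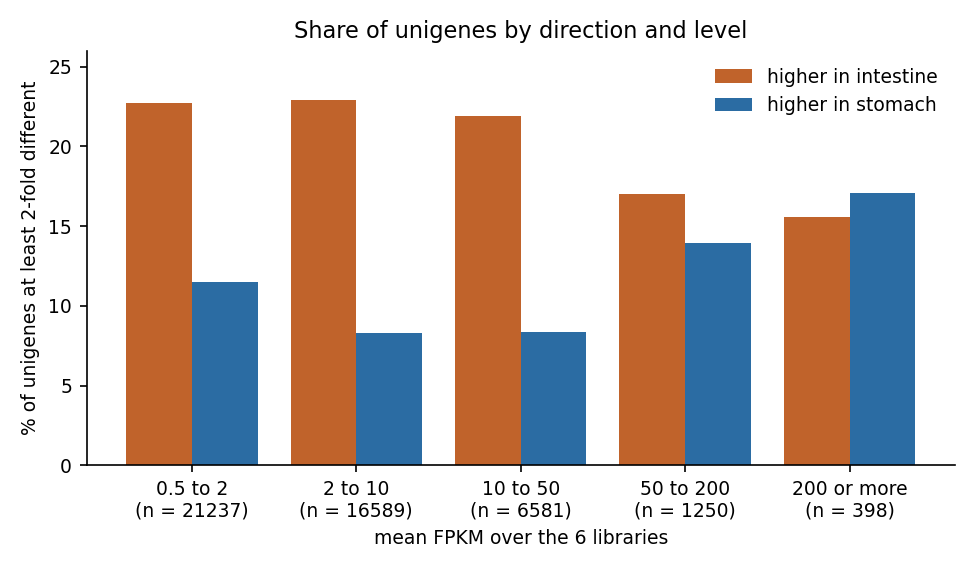
Percentage of unigenes at least 2-fold higher in the intestine (orange) or in the stomach (blue), in 5 classes of mean FPKM over the 6 libraries, with the number of unigenes in each class. As deposited, the bars of the intestine are higher up to 200 FPKM (17.0% against 13.9% at 50 to 200) and the bar of the stomach above it (17.1% against 15.6%), but the class of 50 to 200 turns under each of the other 3 scalings and that of 0.5 to 2 under quantile normalization.

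The 10346 unigenes at least 2-fold higher in the intestine took 30.2% ± 0.039 (SD, n = 3) of its summed FPKM and 5.31% ± 0.037 of that of the stomach. The 4611 unigenes higher in the stomach took 28.3% ± 0.040 of its summed FPKM and 5.06% ± 0.0077 of that of the intestine. The 153 unigenes at least 64-fold higher in the intestine alone took 11.5% ± 0.080 of its summed FPKM. The corresponding 33 unigenes of the stomach took 8.53% ± 0.093 there. Unigenes within 2-fold took 64.1% of the summed FPKM in the intestine and 65.9% in the stomach. These shares describe classes chosen on the same values and carry no test.

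Of the 10 most abundant unigenes of each tissue, 3 were common to both, and of the 100 most abundant, 63 were. Among the 10 of the intestine, 5 were at least 16-fold higher there, at 4257 to 11182 FPKM against 6.36 to 15.6 FPKM in the stomach. The other 5 were within 2-fold of the stomach. Among the 10 of the stomach, 4 were at least 16-fold higher there, at 7029 to 17642 FPKM against 10.02 to 30.5 FPKM in the intestine. A further 3 of the 10 were 2.21-fold to 3.05-fold higher in the stomach, and 3 were within 2-fold. The 10 of the stomach took 12.4% ± 0.059 (SD, n = 3) of its summed FPKM and the 10 of the intestine 10.1% ± 0.061 of its own. In the lists of 100, 20 of the intestine were at least 16-fold higher there, and 9 of the stomach were at least 16-fold higher there. These lists also hold unigenes that were higher in the other tissue, 5 in the list of the intestine and 3 in that of the stomach, at 2-fold or more.

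Some unigenes were listed at 0 in all 3 libraries of 1 tissue. At 1 FPKM or more in every library of the intestine and at 0 in the stomach were 943 of the 66837 unigenes, and 193 of them showed the reverse. At 10 FPKM or more these were 80 and 12, and at 50 FPKM or more 7 and 1. The highest mean among them was 132 FPKM in the intestine and 61.1 FPKM in the stomach. Depth was not compared between the tissues, and its part in these counts was not tested. A value of 0 is an estimate, since 6428 to 7306 unigenes per library had values above 0 but below 0.001 FPKM, so the tissues were also compared at no more than 0.1 FPKM. At that limit, 1611 unigenes of at least 1 FPKM were found for the intestine and 275 for the stomach. Of the 943, 614 (65.1%) were also listed at 0 in all libraries of MUS, and 387 (41.0%) had a mean of at least 1 FPKM in MUI. Of the 193, 130 (67.4%) were at 0 in all libraries of MUI and 43 (22.3%) had a mean of at least 1 FPKM in MUS. Among all unigenes, 10126 to 11091 were at 0 in a library of MUS and 5508 to 6173 in a library of MUI. The shares of the 943 and of the 193 are therefore not set against each other.

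To follow strongly tissue-biased unigenes chosen without the mature libraries, unigenes were taken that had at least 200 FPKM in 1 tissue of immature SA and a level at least 32-fold higher than in the other. This gave 32 unigenes of the intestine and 14 of the stomach. In mature SA, 27 of the 32 were at least 2-fold higher in the intestine, 19 of them at least 32-fold. Of the other 5, 4 were within 2-fold and 1 was higher in the stomach. Of the 14, 9 were at least 2-fold higher in the stomach, 6 of them at least 32-fold, and 5 were within 2-fold. By size, 22.5% of all unigenes compared were 2-fold higher in the intestine and 10% in the stomach. Among the 398 unigenes averaging 200 FPKM or more over the 6 mature libraries, these shares were 15.6% and 17.1%.

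Among the chosen unigenes, 20 of the intestine and 8 of the stomach were also at 200 FPKM or more in the same tissue of mature SA. This second filter used mature libraries and favours a higher level in that tissue. The counts by direction that follow are therefore partly set by it and carry no test. Of the 20, 18 were at least 2-fold higher in the intestine, and of the 8, 7 were at least 2-fold higher in the stomach. Their levels in the other tissue ranged widely, from 0.00578% to 120% of the level in the intestine for the 20 and from 0.0728% to 84.1% of the level in the stomach for the 8. The 20 had a median level in the stomach of 0.114%, 0.191% and 0.235% of their level in the intestine, in MDS_1, MDS_2 and MDS_3. MDS_1 had the lowest value for 15 of the 20. The 8 had a median level in the intestine of 0.204%, 0.399% and 0.389% of their level in the stomach, in MDI_1, MDI_2 and MDI_3, with MDI_1 the lowest for 7 of the 8. The libraries numbered 1 had 0.848 (MDI) and 0.872 (MDS) times the depth of those numbered 2, as estimated from low values, and those numbered 3 had 0.999 and 1.01 times. The part of depth in these low levels was not tested.

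**Figure D4:**
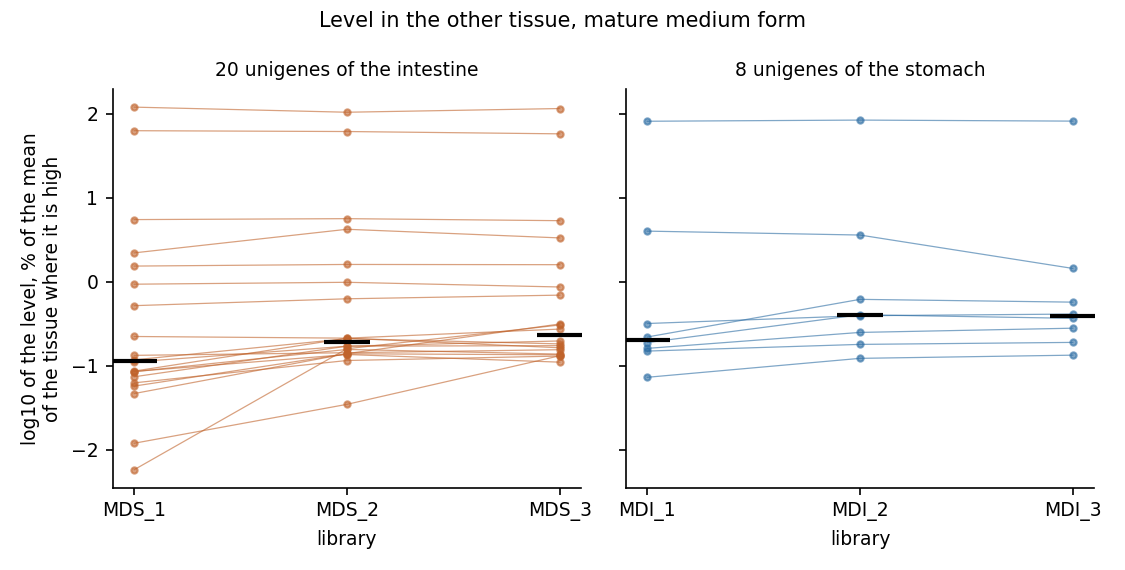
Level of 20 unigenes of the intestine in each library of MDS (left) and of 8 unigenes of the stomach in each library of MDI (right), as the log10 of the percentage of the mean in the tissue where they are high. Each line is 1 unigene and the black bars are medians, which are lower in MDS_1 (0.114%) and MDI_1 (0.204%) than in the other libraries.

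The unigenes differed by the kind of ID they carry. IDs that begin with CL (10740 of those compared) were at least 2-fold different in 21.5% of cases, and IDs that begin with comp (35315) in 35.8%. The gap was seen in each class of level and was widest at 200 FPKM or more, where 17.0% of 212 CL unigenes and 50.5% of 186 comp unigenes differed. Both kinds had more unigenes that were higher in the intestine, 1622 against 683 for CL and 8724 against 3928 for comp, as deposited. After quantile normalization both directions turned, to 1036 against 1297 for CL and 6284 against 6447 for comp. The sources used here do not say what the prefixes stand for. Apart from CL1, 154 numbers after CL were shared by 2 or more unigenes compared. In 21 of them at least 2 unigenes differed 2-fold, in the same direction in 20 and in opposite directions in 1. The excess of CL unigenes higher in the intestine (1622 against 683) favours a shared direction by itself. Nothing is therefore read from the 20.

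To ask whether the tissue difference of mature SA is also that of immature SA, the log2 ratio of intestine over stomach was computed in both stages for the 50372 unigenes that averaged 0.5 FPKM or more across all 12 libraries. The stages share no library. Across unigenes, which are not independent replicates, the Pearson correlation of the log2 ratios was 0.46 and the Spearman correlation 0.38. Among the 1570 unigenes averaging 50 FPKM or more they were 0.73 and 0.67. Of the 10192 unigenes (20.2%) at least 2-fold higher in the intestine of mature SA, 5235 (51.4%) were so in immature SA, which is 41.4% of the 12657 (25.1%) of immature SA. Of the 4337 (8.61%) higher in the stomach of mature SA, 1440 (33.2%) were so in immature SA, which is 25.2% of the 5708 (11.3%) there. Opposite directions at 2-fold or more were found for 907 unigenes. Among those of at least 50 FPKM, 165 were higher in the intestine in both stages, 145 higher in the stomach in both, and 21 had opposite directions.

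The most biased unigenes of mature SA mostly had the same direction in immature SA. Of the 153 at least 64-fold higher in the intestine, 139 were at least 2-fold higher there in immature SA as well (90.8%), 13 were within 2-fold and 1 was higher in the stomach. Their median log2 size was 6.57 in mature and 4.73 in immature SA. Of the 33 of the stomach, 29 were at least 2-fold higher there in immature SA (87.9%), 2 were within 2-fold and 2 were higher in the intestine. Their medians were 6.85 and 5.22. At 16-fold or more, 682 of 791 unigenes of the intestine (86.2%) and 98 of 142 of the stomach (69.0%) kept their direction at 2-fold in immature SA. The opposite direction was found for 3 and 10 of them. These unigenes were chosen for a large ratio in mature SA, so nothing is read from the order of the medians.

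The difference between stages was tested for each unigene as the interaction of tissue and maturity in limma over the 12 libraries. With an adjusted p below 0.05 and a change of 1 or more in log2 units, 25.3% of the unigenes passed. The ratio of intestine over stomach was larger in mature SA for 12.2% (6166 unigenes) and smaller for 13.1% (6584). This order depended on the scaling. It turned with quantile normalization (6533 larger and 6286 smaller ratios) and with median-of-ratios factors (6325 and 6307), but not with equal summed FPKM (6183 and 6520). Among unigenes of at least 50 FPKM, 401 of 1570 (25.5%) passed, 150 with a larger ratio and 251 with a smaller one. With the other scalings these were 150 to 170 and 234 to 250. The largest class of those that passed was higher in the intestine of immature SA and within 2-fold in mature SA. It was also a large class to begin with, and 3568 of its 6954 unigenes passed. Of the 4518 higher in the intestine of mature SA and within 2-fold in immature SA, 2073 passed. For the stomach, 2069 of 3829 higher in immature SA only passed, and 1075 of 2429 higher in mature SA only. Directions were opposite, at 2-fold or more in each stage, for 374 of those that passed and were higher in the intestine of mature SA, out of 439. They were opposite for 408 out of 468 that were higher in its stomach. These opposite classes are defined by a large difference between stages, so their high share is no separate result. The median log2 ratio of all 50372 unigenes was 0.23 in mature and 0.31 in immature SA.

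The named unigenes were chosen by their ratio or level in mature SA, which favours a larger tissue difference in mature than in immature SA. Their interactions and p-values are therefore not independent of that choice. Of these unigenes, comp24169_c0_seq1_1 had a tissue difference that was larger in mature SA by 4.68 ± 0.64 on the log2 scale (SE, n = 3 per group, limma interaction, adjusted p = 0.00025). For CL7450Contig1 the interaction was -9.72 ± 0.55 (adjusted p = 3.7e-07 from limma), and for comp33489_c0_seq1_2 it was -2.64 ± 0.10 (adjusted p = 2.3e-08 from limma), both towards the stomach in mature SA. For comp32346_c1_seq1_2 it was 1.73 ± 0.62 (adjusted p = 0.054 from limma) and did not pass. That value rests on low levels in the stomach, where the libraries of MUS were at 2.61 FPKM, 9.16 FPKM and 10.9 FPKM. The interaction passed in the fit with a replicate block (1.73), with a pseudocount of 1 FPKM (1.80), with a filter of 10 FPKM (1.73), after quantile normalization (2.15) and without MUS_1 (2.32).

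**Figure D5:**
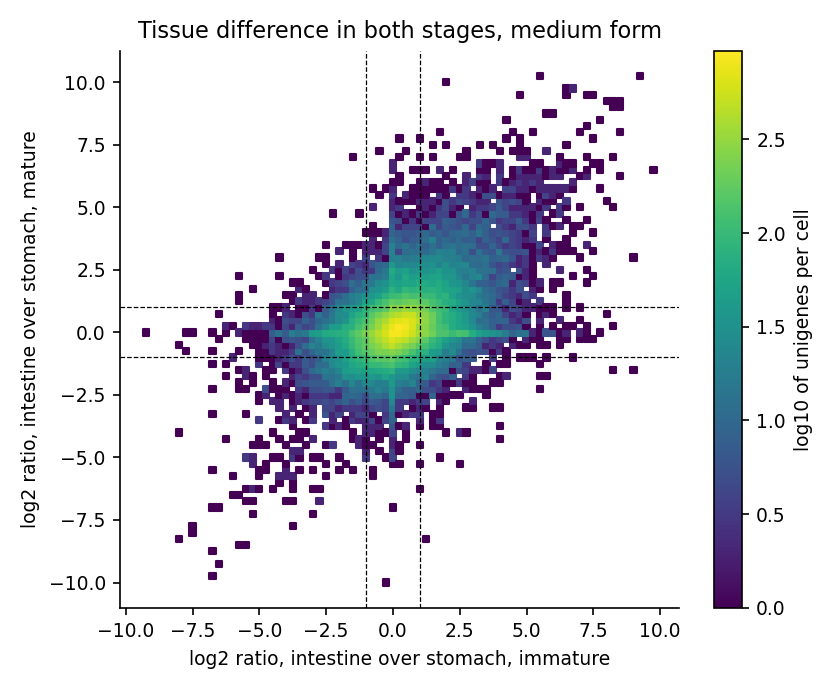
Log2 ratio of intestine over stomach in mature SA (vertical axis) against that in immature SA (horizontal axis) for 50372 unigenes in cells of 0.25, coloured by the log10 of the number of unigenes. Dashed lines mark 2-fold, and the Pearson correlation across unigenes is 0.46.

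Of the 21 unigenes with at least 50 FPKM and opposite directions, 8 were higher in the intestine of mature SA and 13 in its stomach. The 3 with the largest interaction are given here, chosen after their values were seen. The unigene ranked 1 was at 248 FPKM, 282 FPKM and 219 FPKM in MUI and below 0.001 FPKM in MUS. In mature SA it was at 2.59 FPKM in MDS_2 and at no more than 0.00843 FPKM in the other 5 libraries, so its direction there rests on 1 library. The unigene with the second largest reversal was at 312 FPKM, 333 FPKM and 316 FPKM in MDS and at 0.287 to 0.722 FPKM in MDI. In immature SA it was at 0.299 to 1.23 FPKM in MUI and below 0.001 FPKM in MUS, so it was nearly absent there and its reversed direction rests on low levels. The third largest was at 669 to 670 FPKM in MDI and 3.98 to 5.10 FPKM in MDS. In immature SA its levels were 0.0409 to 0.526 FPKM in MUI and 1.24 to 1.85 FPKM in MUS. It thus differed by more than 100-fold between tissues in mature SA only, and its immature libraries did not overlap either, at levels below 2 FPKM.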

How the data were processed

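RNA of the intestine and stomach was sequenced from MF and dwarf form SA. The authors assembled 1 set of unigenes from the reads of the MF with Trinity and deposited 1 table of FPKM for each library. The aligner and FPKM software were not given in the sources used here. Counts per unigene were not used here, so the number of fragments behind a value is not given. Read totals of the libraries served only for the remark that those of MDS_2 and MDS_3 are equal. Files of 12 MF libraries were joined by ID. The 12 dwarf form libraries have other IDs and were not used.

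The study names a count method, which FPKM does not allow. limma 3.58.1 in R 4.3.3 was therefore applied to log2(FPKM + 0.5) with 2-sided tests, no covariate and a prior spread that follows the mean level, keeping unigenes that averaged 0.5 FPKM or more across 6 libraries (12 for the interaction). Fold changes on this scale understate the change of unigenes with low levels. Calls needed at least a 2-fold difference with an adjusted p (Benjamini-Hochberg) or unadjusted P below 0.05. The limma step was run on simulated data with counting noise only and no changes at low levels. That run therefore shows nothing about spread between animals or about calls at low levels. Relative depth was taken as the most frequent ratio of low values (0.02 to 2 FPKM) between libraries, in Python 3.11.15. The peak held 0.769% to 1.11% of ratios, so it is weak. The value of 1 read was not estimated, since many values lie below any whole read.

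Named unigenes were, for each tissue, that with the largest ratio (mean of at least 10 FPKM, no overlap) and the most abundant one that differed at least 2-fold without overlap. Members, rules and tests were chosen with earlier results of these data known. Alternatives were the pseudocount, the filter, the scaling, the trend, a spread shared over 12 libraries, a replicate block and leaving out each library. Scaling to equal summed FPKM was added after seeing the data.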

Additional observations from a re-analysis of the deposited data

Results flagged for a closer look

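Differences in the tissue effect between mature and immature SA were marked where the limma interaction passed an adjusted p below 0.05 with at least 1 on the log2 scale. This held for 12750 unigenes. Among the named unigenes it held for comp24169_c0_seq1_1 (4.68, larger towards the intestine in mature SA), for CL7450Contig1 (-9.72, towards the stomach) and for comp33489_c0_seq1_2 (-2.64, towards the stomach). The named unigenes were chosen by their mature values, which favours interactions of these directions. Groups of 3 libraries are too small for a search for single outlying libraries.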

How the results depend on the processing

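The named unigenes kept their direction and passed in the mature comparison under each alternative run, with log2 fold changes of 9.90 to 11.02 for comp24169_c0_seq1_1, 9.14 to 9.74 for comp32346_c1_seq1_2, -10.20 to -9.70 for CL7450Contig1 and -9.47 to -8.99 for comp33489_c0_seq1_2. The interaction of comp32346_c1_seq1_2, 1.73 and not past the threshold, passed with a pseudocount of 1 FPKM (1.80), a filter of 10 FPKM (1.73), quantile normalization (2.15), the replicate block (1.73) and without MUS_1 (2.32). A filter of 10 FPKM tests fewer unigenes and gave 2502 calls at the adjusted threshold (1722 in the intestine, 780 in the stomach), 2509 at the unadjusted one (1726 and 783), 2509 by size (1717 and 792) and 2204 interactions (934 larger and 1270 smaller in mature SA). In the main fit, the adjusted threshold called 29.9% of unigenes of 10 to 50 FPKM, 31.0% of 50 to 200 and 32.7% of 200 or more. It called 27.4% of all. Quantile normalization raised the unigenes higher in the stomach to 6114 at the adjusted threshold, 6824 at the unadjusted one and 7744 by size. The median log2 ratio of all unigenes, 0.26, was 0.30 with 0.1 FPKM added, 0.22 with 1 FPKM added, 0.20 with no filter, 0.31 with the filter of 10 FPKM, -0.11 after quantile normalization, 0.0061 with median-of-ratios factors and 0.081 with equal summed FPKM, a scaling chosen after seeing the data. Unigenes of the intestine listed at 0 in the stomach rose from 943 to 1611 at a limit of 0.1 FPKM, and the lists of the 10 most abundant shared 30%. The cause of the other changes was not tested.

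Leaving out 1 library in turn gave 11699 to 12030 calls at the adjusted threshold, 13262 to 13546 at the unadjusted one, 15244 to 15484 by size and 11880 to 12226 interactions. The median log2 ratio was then 0.25 to 0.27. The library numbers were not treated as pairs in the main fits. The deviations of libraries with the same number correlated at 0.034, 0.0046 and -0.0010 across unigenes, and those with other numbers at -0.021 to 0.018. These values cannot show whether libraries with the same number come from 1 animal, since the part of counting error in the deviations is unknown. With the number as a replicate block, 12232 unigenes passed the adjusted threshold and 12467 the interaction. The number of fragments behind a value is not given, which limits what can be said of levels below about 2 FPKM. Trinity sub-components (IDs with the same comp number, c number and last digit) could not be compared, since none had more than 1 unigene tested.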
